A study of Mus musculus with 2 samples.

Results

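Myosin is the motor of the heart muscle cell. A heavy chain pulls on actin, each heavy chain head carries an essential and a regulatory light chain, and cardiac myosin-binding protein C holds the heads in place along the thick filament. The chains are encoded by isoform genes that differ in their place of use: in the adult mouse the α heavy chain (Myh6) is the main ventricular heavy chain, the β heavy chain (Myh7) is used before birth and returns in many stressed hearts, and the light chains have ventricular (Myl2, Myl3) and atrial (Myl4, Myl7) forms. The 10 genes examined here were chosen by name: the heavy chains Myh6, Myh7 and Myh7b, the light chains Myl1, Myl2, Myl3, Myl4 and Myl7, the cardiac light chain kinase Mylk3 and the binding protein gene Mybpc3. A probe was found for 9 of the 10, out of 12779 named genes measured on the arrays. Each of these 9 genes had 1 probe, and each probe was detected in every channel. The Mylk3 probe carried an older symbol of that gene. The single candidate for Myh7b was named Myh14, which is also the current symbol of another heavy chain gene, so no value is given for Myh7b.

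The hearts came from αMHC/miR-143/145TG mice of the lines L9 and L19 and from a non-transgenic (NTG) mouse, all at the age of 3 months. In the TG mice, the human primary transcripts of miR-143 and miR-145 were placed under the αMHC promoter, which is the promoter of Myh6 and drives expression in cardiomyocytes; each is 1 founder line and was backcrossed to C57BL/6J. Total RNA of 1 TG heart was labelled with Cy3 and set on 1 array against Cy5-labelled RNA of 1 NTG heart, so there were 2 arrays, 1 for L9 and 1 for L19. Both arrays carried the same NTG source label, while the methods of the study speak of NTG mice in the plural, so whether both arrays held RNA of 1 NTG heart is not settled; NTG is counted as 1 control sample, and a gap between its readings may be technical or between hearts. The dyes were never swapped, so genotype and dye cannot be told apart.

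Signals below are spot intensities minus the mean of the blank spots, in arbitrary units. TG signals were divided by a constant per array so that the median TG over NTG ratio was 1. Over the 17483 features measured in all 4 channels (genes, or probes with no gene name), the median of the mean log2 ratio was -0.01. The 2 NTG readings differed between arrays with an SD of 0.27 on the log2 scale after centring, and the L9 and L19 readings with an SD of 0.41. Tested with limma against a log2 ratio of 0, no feature passed an adjusted p of 0.05 (smallest adjusted p = 0.085), while 2745 higher (15.7%) and 2521 lower (14.4%) features had an unadjusted p under 0.05. With the study's cutoff of 1.5-fold applied to each line, 910 features were higher and 530 lower in both lines. The same split was 885 and 20 after normexp, 82 and 1364 with no background subtracted, 860 and 853 with the local background subtracted, and 753 and 541 after loess.

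Myh6 and Myl2, the α heavy chain and the ventricular regulatory light chain, were the 2 members lower than NTG by 1.5-fold or more in both lines, and no member was higher by that much in both. Across all features, 3.03% were lower and 5.21% higher by this rule. Myl4 and Mybpc3 lay above NTG to nearly the same extent in L9 and L19, Myh7, Mylk3 and Myl3 differed less from NTG, and Myl1 and Myl7 went in opposite directions in the 2 lines. Of the 9 measured members, 4 were above NTG in both lines, 2 below in both and 3 on opposite sides, against 35.5%, 38.4% and 26.1% of all features. Adjusted p-values of the members by limma ran between 0.086 and 0.82. When limma was given a variance trend over signal and robust estimation, 2 members passed on the lower side (Myh6 and Myl2) and 2 on the higher side (Myl4 and Mybpc3), and 9.59% and 10.5% of all features passed on these sides.

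**Figure D1:**
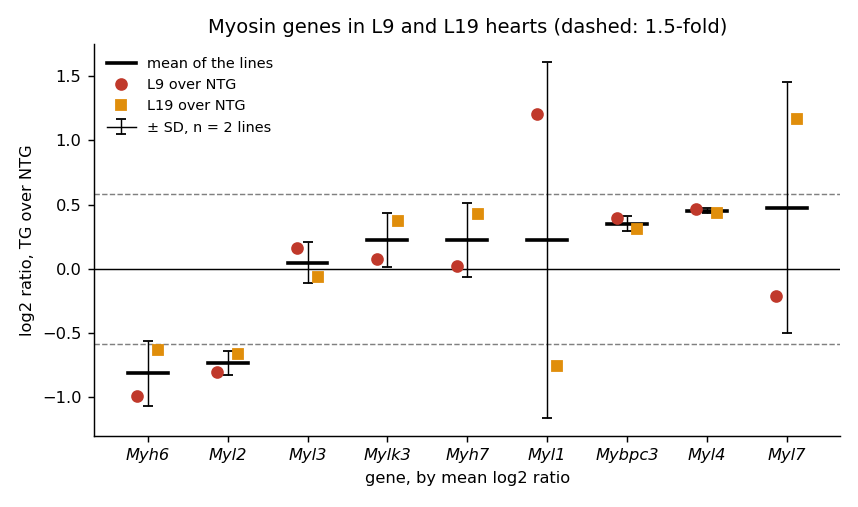
Log2 ratio of TG over NTG (y axis) for the 9 measured myosin genes (x axis, by mean). Points are L9 and L19, thick bars the mean and error bars the SD of the 2 lines, and dashed lines mark 1.5-fold; Myh6 and Myl2 lie below the lower dashed line in both lines, and the points of Myl1 and Myl7 lie far apart.

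Myh6 had signals of 9633 in L9 and 13588 in L19, against 19151 and 21064 in the NTG RNA of the same arrays. Both TG readings were below both NTG readings. The L9 heart stood at 50.3% and the L19 heart at 64.5% of NTG, log2 ratios of -0.99 and -0.63 with a mean of -0.81 ± 0.25 (SD, n = 2 lines; adjusted p = 0.093 by limma). Myh6 was the member with the lowest mean, and it encodes the chain whose promoter was used for the transgene. Whether that use of the promoter has a part in the Myh6 values was not tested. The adjusted p ran between 2.08e-05 and 0.446 over the other ways of processing the arrays.

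Myh7, the slow β heavy chain that lies next to Myh6 on chromosome 14, had signals of 304 in L9 and 403 in L19, against 300.2 and 299 in NTG. The L9 value was thus near its NTG value and only the L19 value was clearly above, with log2 ratios of 0.02 and 0.43 and a mean of 0.22 ± 0.29 (SD, n = 2 lines; adjusted p = 0.38 by limma). With no background subtracted the mean was -0.27, and with the local background subtracted -0.014, so the direction of Myh7 was not stable. The difference between the heavy chains within each array was steadier. Myh7 minus Myh6 was 1.01 in L9 and 1.06 in L19 on the log2 scale (mean 1.04 ± 0.04, SD, n = 2 lines), a 2.05-fold shift of the Myh7 to Myh6 ratio relative to NTG, and it lay between 0.83 and 1.11 under the other background corrections and loess. In L9 nearly all of this difference came from Myh6, and in L19 both genes contributed. The 2 genes differ widely in brightness, with a mean log2 signal of 13.9 for Myh6 and 8.34 for Myh7. The median of the mean log2 ratio was -0.50 in the 48 brightest features, where Myh6 lies. It was -0.01 in the 291 features around the signal of Myh7. The part of this trend over signal in the difference was not tested. The difference is given as a value with no test.

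The promoters of this pair are shown because the Myh7 to Myh6 ratio was above that of NTG in both lines and the αMHC promoter carried the transgene. Each run is the RefSeq window of 250 bases before to 50 after the annotated start in GRCm38.p6, from the minus strand, read 5′ to 3′ in the direction of the gene. The windows are chr14:54966558-54966857 for Myh6 and chr14:54994577-54994876 for Myh7, the outer of its 2 annotated starts. Capitals mark the letters GGAATG, the core of the MCAT element that TEAD factors bind, and TATAAA, the letters of a TATA box.
Myh6: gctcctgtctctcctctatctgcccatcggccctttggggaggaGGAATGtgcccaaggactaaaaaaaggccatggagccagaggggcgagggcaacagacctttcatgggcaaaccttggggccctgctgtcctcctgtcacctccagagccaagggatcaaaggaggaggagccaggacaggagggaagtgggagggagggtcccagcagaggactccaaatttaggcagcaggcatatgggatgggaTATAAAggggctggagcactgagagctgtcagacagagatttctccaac
Myh7: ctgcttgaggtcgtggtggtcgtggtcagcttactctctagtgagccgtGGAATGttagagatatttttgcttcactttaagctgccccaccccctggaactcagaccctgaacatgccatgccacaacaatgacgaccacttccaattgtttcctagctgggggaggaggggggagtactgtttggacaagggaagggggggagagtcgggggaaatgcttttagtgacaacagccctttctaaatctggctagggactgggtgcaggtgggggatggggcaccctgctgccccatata
The letters GGAATG stood at bases 45 to 50 of the Myh6 window and 50 to 55 of the Myh7 window, and TATAAA at bases 252 to 257 of the Myh6 window, which is just after the annotated start and not upstream of it. Searched on both strands, GGAATG was in 14.7% and TATAAA in 13.6% of all 32851 windows of this length. The letters AGATAA, a form of the site bound by cardiac zinc finger factors such as Gata4, were in 11.2% of them. Other forms of that site were not searched, so its counts here are of AGATAA only. Among the 13 windows of the 10 genes, GGAATG was found for 6 genes, TATAAA for 3 and AGATAA for 3, and no matches overlapped. A gene was counted if any of its windows matched, so these counts cannot be set directly against the shares of single windows. The window of the other annotated start of Myh7, chr14:54994500-54994799, held none of these letters. Sequence matches are given as a description only.

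Myl2, the ventricular regulatory light chain that Mylk3 phosphorylates, had signals of 27773 in L9 and 33074 in L19, against 48373 and 52473 in NTG. The TG and NTG readings did not overlap. L9 stood at 57.4% and L19 at 63.0% of NTG, log2 ratios of -0.80 and -0.67 with a mean of -0.73 ± 0.10 (SD, n = 2 lines; adjusted p = 0.086 by limma, and between 9.54e-06 and 0.446 over the alternatives). Its spots lay near the top of the scanner range in all 4 channels: before scaling, the spot values were 56186 and 60627 in the TG channels and 48392 and 52492 in the NTG channels. Full scale was 65535, and no member reached it. The brightest 8 to 13 spots of each channel, Myl2 among them, were stored as whole numbers while dimmer ones were not, and the sources used here do not say how the scanner software formed them.

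The other ventricular light chain, Myl3, which encodes the essential chain, gave signals of 823 in L9 and 642 in L19, against 737 and 672 in NTG. These values overlap. The log2 ratios were 0.16 and -0.067 (mean 0.05 ± 0.16, SD, n = 2 lines; adjusted p = 0.82 by limma). The area around this spot was bright: the local background reached 75.9% and 89.0% of the spot value in the TG channels of L9 and L19, and 79.3% and 96.8% in the NTG channels. With that local background subtracted, the mean log2 ratio was 1.20 (adjusted p = 0.45 by limma). With no background subtracted it was -0.48 (adjusted p = 0.00053 by limma), and after normexp 0.95 (adjusted p = 0.0066 by limma). Limma thus called Myl3 in opposite directions under these corrections, and neither its size nor its direction was settled.

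**Figure D2:**
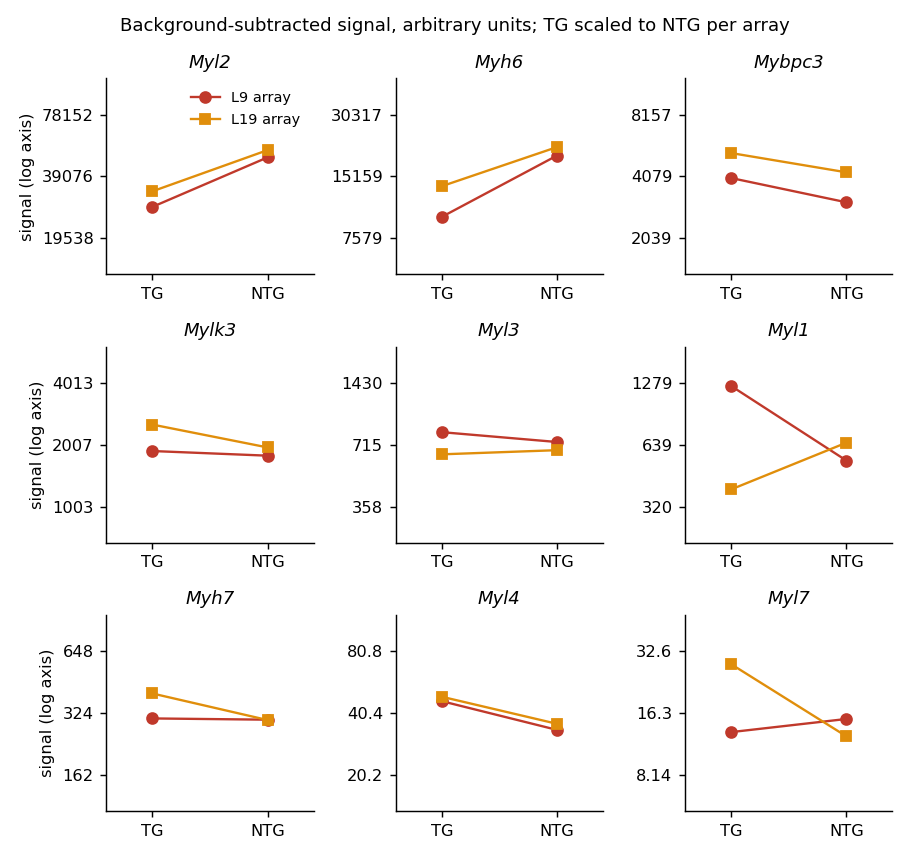
Background-subtracted signal in arbitrary units (log y axis spanning the same fold in each panel) of the 9 myosin genes in TG and NTG channels. Each line joins the channels of 1 array, L9 or L19; for Myl2 the TG signals of 27773 and 33074 lie below the NTG signals of 48373 and 52473, and for Myl1 the lines cross.

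The atrial light chains gave dim spots. Myl4, the atrial essential chain that the fetal ventricle also uses, had signals of 46.1 in L9 and 48.4 in L19, against 33.4 and 35.8 in NTG. Both TG readings were above both NTG readings, with log2 ratios of 0.46 and 0.44 (mean 0.45 ± 0.02, SD, n = 2 lines; adjusted p = 0.12 by limma). The 2 lines differed by 0.03, and 92.2% of all features differed more between the lines. The mean stayed above 0 under every alternative, between 0.15 and 0.48, and the adjusted p ran between 0.025 and 0.58. The local background was 70.2% and 72.0% of the Myl4 spot value in the TG channels of L9 and L19, and 55.6% and 59.0% in the NTG channels. With that local background subtracted, the mean log2 ratio was 0.25.

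Myl7, the atrial regulatory chain, had signals of 13.1 in L9 and 28.1 in L19, against 15.2 and 12.5 in NTG. Only the L19 heart stood above NTG, at 2.24-fold, while L9 stood at 86.3%. The log2 ratios were -0.21 and 1.17 (mean 0.48 ± 0.97, SD, n = 2 lines; adjusted p = 0.44 by limma). The spots were little brighter than the blanks, with values of 112 and 124 in the TG channels, where blanks averaged 85.2 and 72.6, and 34.3 and 31.6 in the NTG channels, where they averaged 19.1 on both arrays.

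The atrial pair minus the ventricular pair, as mean log2 ratios, was 0.45 in L9 and 1.17 in L19 (mean 0.81 ± 0.51, SD, n = 2 lines). In L19 much of this came from Myl7 and in both lines from Myl2. The mean was -0.21 after normexp and 0.20 with the local background subtracted, so the direction depended on the background correction. Other atrial markers were mixed. Of 12 listed atrial markers 9 were measured, of which 4 were above NTG in both lines and 5 below in both. The 3 past 1.5-fold were Gja5, the connexin-40 gene, at 1.66 and 1.70 in L9 and L19 on the log2 scale, the kinase gene Stk39 at 0.82 and 0.93, and the secreted factor gene Dkk3 at 0.87 and 0.87. Gja5 signals were only 5.60 and 7.11 in TG, against 1.77 and 2.19 in NTG. Sln (sarcolipin) was at -0.30 and -0.12, and Bmp10, an atrial growth factor, at -0.13 and -0.29. The summed signal of the 9 measured markers was 1457 and 1581 in TG, against 973 and 1009 in NTG, and most of it came from Stk39. Without Stk39, left out after its values were seen, the sum was 434 and 495 in TG, against 395 and 439 in NTG. The part of these markers in the Myl4 and Myl7 values was not tested. Of the 7 ventricular markers, 4 were above NTG in both lines and 2 below in both. The homeobox gene Irx3 (1.26 and 1.21) was past 1.5-fold on the higher side and none was on the lower. The 2 below were Pln (-0.60 and -0.46) and Gja1 (-0.11 and -0.81). The summed signal of these markers was 11284 and 11487 in TG, against 15739 and 16129 in NTG, and most of it came from Pln.

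Myl1, an essential light chain of fast skeletal muscle, showed the widest gap between lines. Its signals were 1234 in L9 and 387 in L19, against 535 and 654 in NTG. L9 was 2.31-fold above NTG and L19 was at 59.3% of it, log2 ratios of 1.20 and -0.75 (mean 0.22 ± 1.39, SD, n = 2 lines; adjusted p = 0.79 by limma). A line difference as large as this, 1.96, was exceeded by 0.14% of all features. The gap sat in the TG channel: after centring, the TG signal of the L19 array minus that of the L9 array was -1.78 on the log2 scale, while the NTG readings differed by 0.17. The local background was 65.8% and 62.1% of the spot value in the TG channels of L9 and L19, and 69.1% and 70.8% in the NTG channels. Of 17 listed skeletal muscle markers, 9 were measured and none was past 1.5-fold in both lines in either direction. That count cannot hold a gene that, like Myl1, goes opposite ways in the 2 lines. The summed signal of these markers was 202 in L9 and 216 in L19, against 275 and 282 in NTG. The skeletal actin gene Acta1, which is not in that list, had signals of 1110 in L9 and 219 in L19, against 1273 and 1364 in NTG. Mylpf, the fast skeletal regulatory light chain, had signals of 11.0 and 16.5 in TG, against 9.70 and 15.2 in NTG.

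The kinase and the binding protein lay slightly above NTG. Mybpc3, which encodes cardiac myosin-binding protein C, had signals of 4005 in L9 and 5300 in L19, against 3052 and 4272 in NTG. On each array TG was above NTG, but the L9 TG reading was below the NTG reading of the L19 array. The log2 ratios were 0.39 and 0.31 (mean 0.35 ± 0.06, SD, n = 2 lines; adjusted p = 0.15 by limma, and between 0.0077 and 0.62 over the alternatives). With no background subtracted the mean was -0.21 (adjusted p = 0.019 by limma), and after normexp 0.78 (adjusted p = 0.0077 by limma). Mylk3, which encodes the cardiac kinase for the regulatory light chain, had signals of 1869 in L9 and 2514 in L19, against 1774 and 1946 in NTG. The L9 reading lay between the 2 NTG readings. The log2 ratios were 0.08 and 0.37 (mean 0.22 ± 0.21, SD, n = 2 lines; adjusted p = 0.33 by limma), and the mean was -0.33 with no background subtracted.

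The 2 lower members were also the 2 brightest. Only 2 features had a higher mean signal than Myl2 and only 22 a higher one than Myh6. Bright features as a class lay below NTG: the median of the mean log2 ratio was -0.02 in the brightest 10% of features, -0.23 in the brightest 1% (175 features) and -0.32 in the brightest 0.5% (88 features), of which 19.3% were lower by 1.5-fold or more in both lines. The lower quartile of these 88 features was -0.55, and the means of Myh6 and Myl2 lay below it. In the brightest 48 features, the median was -0.50 and the lower quartile -0.755. Against these, Myl2 lay between the median and the lower quartile, and Myh6 lay just below the lower quartile. Loess, which removes a trend over signal within each array, left Myh6 at -0.62 and Myl2 at -0.47, and then neither gene was past 1.5-fold in both lines. After normexp the values were -0.40 and -0.29. Both stayed below 0 under every alternative.

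**Figure D3:**
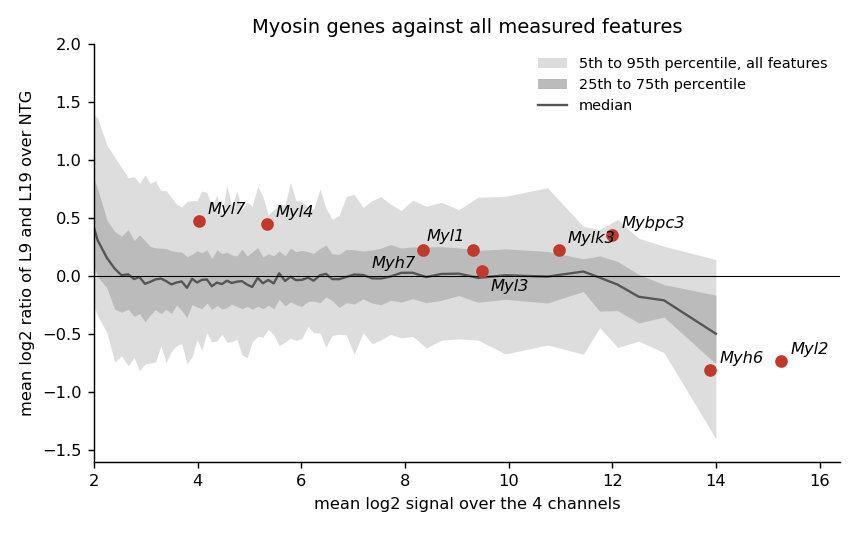
Mean log2 ratio of L9 and L19 over NTG (y axis) against the mean log2 signal of the 4 channels (x axis) for the 9 myosin genes (red) over the percentiles of all 17483 features (grey). The grey median bends below 0 in the brightest features, where Myh6 and Myl2 lie.

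Cardiomyocyte markers that are not members of the set lay below NTG too. Of 13 measured, 9 were below NTG in both lines and 1 above in both, with a median mean log2 ratio of -0.30. Across all features, 38.4% were below and 35.5% above NTG in both lines, and 3.03% were lower and 5.21% higher by 1.5-fold. The 3 past 1.5-fold on the lower side were Atp2a2, the sarcoplasmic reticulum calcium pump, at -1.28 and -1.31, Mb (myoglobin) at -1.22 and -1.20, and Ryr2, the calcium release channel, at -0.80 and -0.78; the transcription factor gene Tbx20 was higher at 0.92 and 0.68. The summed signal of the 13 markers was 103913 in L9 and 115523 in L19, against 176673 and 183089 in NTG. Most of it came from Mb, Tnnt2, Tnni3 and Atp2a2, which are bright like Myh6 and Myl2. Mb had signals of 58932 and 60168 in NTG and Atp2a2 19363 and 23406, while Ryr2 was dimmer at 215 and 211. The part of the trend over signal in these marker values was not tested. Fibroblast markers went the other way. Of 12 measured, 11 were above NTG in both lines and 4 past 1.5-fold, with Mfap5 (1.71 and 1.22), Lum (1.35 and 0.92), Pcolce (0.90 and 0.64) and Gsn (0.69 and 0.75), which encode matrix and actin-binding proteins, and the summed signal was 13345 and 14726 in TG, against 7576 and 9415 in NTG. In whole hearts, fewer cells of a type and less RNA per cell cannot be told apart, and the part of these markers in the Myh6 and Myl2 values was not tested. Of the 7 endothelial markers, 4 were below NTG in both lines and 1, the cadherin gene Cdh5 (-0.80 and -0.76), was past 1.5-fold. Cdh5 signals were only 6.28 and 10.3 in TG, against 11.0 and 17.4 in NTG.

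Of 47 other myosin and thick filament genes listed, 29 were measured. Of these, 2 were higher and 1 lower by 1.5-fold or more in both lines, which is near the shares of all features (5.21% and 3.03%), and 13 were above and 13 below NTG in both. Their median mean log2 ratio was 0.03. The 2 higher genes were Hsp90aa1, a chaperone that works with Unc45b in folding the myosin head (0.89 and 1.05), and Ppp1r12c, a targeting subunit of myosin phosphatase (0.79 and 1.37), whose signals of 31.9 and 46.4 in TG, against 18.4 and 18.0 in NTG, were dim. The lower one was Obsl1, a cytoskeletal adaptor of the M-band (-0.70 and -0.69). None of the 5 other class II heavy chains (the Myh14 probe included) and none of the 3 other light chains measured was past 1.5-fold in both lines. Myh11, the smooth muscle heavy chain, was at -0.07 and -1.12 with signals of 12.9 and 7.86 in TG, against 13.6 and 17.1 in NTG. No named probe was found for the light chains Myl6 and Myl9.

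Of the 9 measured regulators of myosin genes, 1 was lower and none higher by 1.5-fold in both lines, a count too small to set apart from the 3.03% and 5.21% of all features. The lower one was Tead1, which encodes a TEAD factor that binds MCAT elements. Its brighter probe had signals of 199 in L9 and 237 in L19, against 335 and 375 in NTG, with log2 ratios of -0.75 and -0.67 (mean -0.71 ± 0.06, SD, n = 2 lines; adjusted p = 0.086 by limma). A second, dimmer Tead1 probe gave 0.03 and -0.45, so the probes of this gene disagreed. Of 8 measured genes of the fetal and stress programme, 4 exceeded NTG in both lines and 3 were under it in both. Across all features, these shares were 35.5% and 38.4%. By 1.5-fold in both lines, 3 were higher and 1, Atp2a2, lower, against 5.21% and 3.03% of all features. By RT-PCR of L9 hearts, the paper reported lower Serca2A (encoded by Atp2a2) beside higher Anp, Bnp and β-Mhc. The lower Atp2a2 is thus not counted against this programme. Nppa, the atrial natriuretic peptide gene, was at 3.32 and 2.31, Ankrd1 at 2.08 and 1.02, and Nppb, the B-type peptide gene, at 1.504 and 1.03. On the lower side, besides Atp2a2, were the skeletal actin gene Acta1 at -0.20 and -2.64 and the slow skeletal troponin gene Tnnt1 at -0.83 and -0.29.

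**Figure D4:**
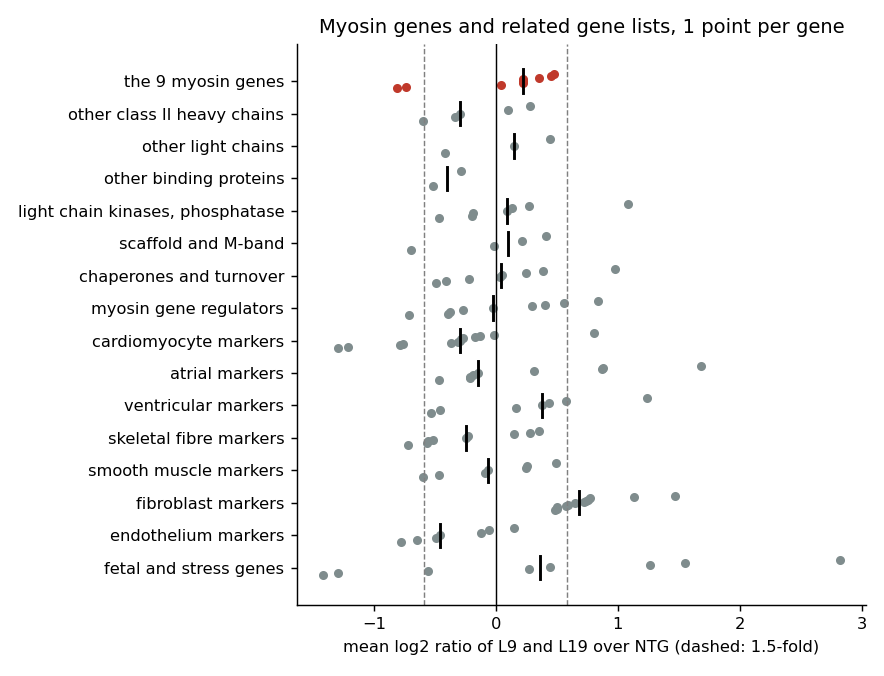
Mean log2 ratio of L9 and L19 over NTG (x axis), 1 point per measured gene, for the 9 myosin genes (red) and related lists (grey). Black bars are list medians and dashed lines 1.5-fold; the cardiomyocyte markers have a median of -0.30 and 11 of 12 fibroblast markers were above NTG in both lines.

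The genes whose pair of log2 ratios was closest to that of Myh6, by Euclidean distance among 12778 named genes, were Fscn1 (-0.996 in L9 and -0.64 in L19), Pcx (-0.99 and -0.62) and Slc27a1 (-0.99 and -0.66). Those closest to Myl7, the member with the highest mean, were Rasal1 (-0.27 and 1.21), Ddit4 (-0.17 and 1.10) and Chrng (-0.16 and 1.28). The measure rests on 2 ratios per gene, both over NTG.

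**Figure D5:**
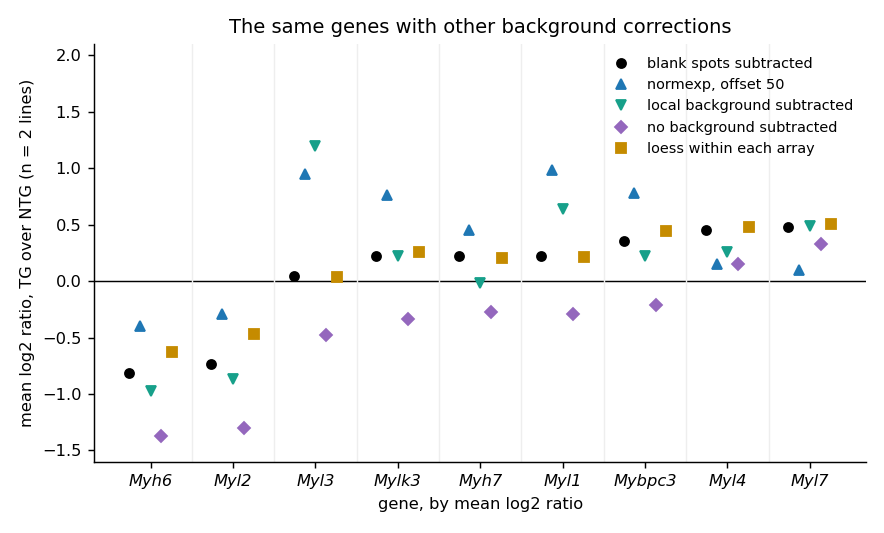
Mean log2 ratio of L9 and L19 over NTG (y axis) of the 9 myosin genes (x axis) under 4 background corrections and loess (symbols). Myh6 and Myl2 stay below 0 and Myl4 and Myl7 above 0 in each, while the direction of Myl3, Mylk3, Myh7, Myl1 and Mybpc3 depends on the correction. For Myl7 this holds for the mean only. In L9 alone Myl7 was at -0.21 with blank spots subtracted, -0.18 after loess and -0.03 after normexp. It was at 0.30 in L9 with the local background subtracted and 0.10 with none.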

How the data were processed

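Total RNA of hearts was amplified, labelled with Cy3 (TG) or Cy5 (NTG) and hybridised to Toray 3D-Gene Mouse Oligo chips by the authors, who deposited the median intensity of each spot and of its surroundings (3D-Gene Extraction, of which no source used here gives the version). They also deposited log2 ratios of Cy3 over Cy5 with a median of 0 per array. Those ratios were rebuilt from the intensities to within 0.001 for all but 1 of the ratios held by both per array (18439 in L9, 18822 in L19), and 3 deposited ratios per array had no rebuilt one: the 5% trimmed mean of the blank spots was subtracted, spots above that mean plus 2 SD counted as detected, 9 (L9) and 3 (L19) spots marked bad were dropped, and the median ratios of 2.02 and 1.83 were scaled to 1. The number of arrays limits the precision.

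Probes were named through the platform annotation and RefSeq (GRCm38.p6), and a gene with several probes was represented by the brightest on average. The departure of the log2 ratios from 0 was assessed with limma 3.58.1 (R 4.3.3; tested on simulated data) with Benjamini-Hochberg adjustment over 17483 features; the spread of NTG hearts is not estimated. Tables and figures were made in Python 3.11.15 with pandas 2.3.3. The members and lists were chosen with earlier results of these data known. Named were all members, list genes past 1.5-fold in the same direction in both lines (up to 4 per list and direction), Myh11, Myl6, Myl9, Mylpf and Nppa, and the 3 genes nearest to the highest and lowest member. Sln, Bmp10, Pln, Gja1, Acta1, Tnnt1 and the second Tead1 probe were added after their values were seen. Alternatives were other background corrections, loess, the deposited ratios, all probes, brighter features, another variance model, a 2-fold cutoff and each line alone; subtraction of the local background and leaving out Stk39 were chosen after seeing the data.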

Additional observations from a re-analysis of the deposited data

Results flagged for a closer look

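For 3 members L9 and L19 lay on opposite sides of NTG; the difference between the lines was not tested. Myl1 had log2 ratios of 1.20 in L9 and -0.75 in L19. Myl7 had -0.21 in L9 and 1.17 in L19, on spots little above the blanks. Myl3 had 0.16 in L9 and -0.067 in L19, a gap of 0.23 that 45.3% of all features exceeded.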

How the results depend on the processing

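With 1 array per line, p-values measure the spread between the 2 ratios only, and whether this holds a spread between NTG hearts is not settled. Without replicate 1 (L9) or replicate 2 (L19), 1709 to 1856 features were higher and 1306 to 1329 lower by 1.5-fold, with 1 member higher in either case and 2 to 3 lower; limma could not be fitted to 1 array. The limma calls (0 higher, 0 lower) became 2747 and 305 after normexp, 5209 and 6448 with no background subtracted, 1250 and 1286 in the upper 50% of signal, and 1836 and 1677 with the trend and robust estimation. The counts past 1.5-fold in both lines (910 and 530) became 82 and 1364 with no background subtracted and 352 and 256 in the upper 50% of signal, which tests fewer features; 219 and 99 passed 2-fold. The lower count was 20 after normexp and 853 with the local background subtracted. After normexp 2 members were past 1.5-fold higher and 0 lower, and after loess 0 were lower. Myh7 minus Myh6 was 0.85 after normexp, 1.11 with no background subtracted, 0.83 after loess and 0.96 with the local background subtracted, and 1.01 to 1.06 with either line alone. The atrial minus ventricular difference was -0.21 after normexp, 0.20 with the local background subtracted and 0.45 to 1.17 with either line alone. With no background subtracted, Myh7 (-0.27), Myl1 (-0.29), Myl3 (-0.48), Mylk3 (-0.33) and Mybpc3 (-0.21) turned below 0, as did Myh7 (-0.014) with the local background subtracted, Myl1 (-0.75 without L9, 1.20 without L19), Myl3 (-0.067 without L9, 0.16 without L19) and Myl7 (1.17 without L9, -0.21 without L19) when 1 line was left out. The cause of these shifts was not tested. Of 71 tested values of single members under alternatives with both lines, 6 had the opposite sign. Another 49 kept direction and side of the threshold, and 16 kept direction and newly passed it. Some values of opposite sign passed it too. With no background subtracted, these were Myh7, Myl3, Mylk3 and Mybpc3 (adjusted p = 0.034, 0.00053, 0.0093 and 0.019 by limma). After normexp, the same genes passed on the higher side. Of 18 untested values of either line alone, 3 had the opposite sign. Each ratio already sets TG against the NTG of its own array, and no further pairing was possible because the labels number no pairs.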
